A study of Mus musculus with 16 samples.

Results

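Genes of the glucocorticoid response and the metallothioneins were followed in kidney and liver RNA of aged mice. The set held 10 genes chosen by name among the 24984 genes of the count tables: the glucocorticoid receptor *Nr3c1*, the activating enzyme *Hsd11b1*, the targets *Fkbp5*, *Tsc22d3*, *Zbtb16*, *Errfi1*, *Lpin1* and *Tat*, and the metallothioneins *Mt1* and *Mt2*. All 10 were counted in all 16 libraries and passed the filter on low counts in both tissues.

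The animals were female wild-type C57BL/6 mice with a labelled age of 24 months, which by the study's methods was the age at injection, injected by vein with an AAV8 vector (an adeno-associated virus with tropism for the liver) that carried a short hairpin RNA against *Fos* (shFos) or a non-targeting hairpin (labelled shNT, here NT). *Fos* encodes a subunit of the AP-1 transcription factor. Tissues were taken some months later. Each tissue had 4 NT and 4 shFos libraries, numbered 1 to 4 in the labels. The labels do not say whether kidney and liver libraries of the same number came from the same mouse, nor at what time of day tissues were taken. Promoter and cell type specificity of the vectors are not given in the sources used here.

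Corticosterone from the adrenal cortex enters cells and binds NR3C1, which is held in the cytoplasm by chaperones and, once bound, moves to the nucleus and acts on target genes. HSD11B1 regenerates active corticosterone from its inert form inside liver and fat cells, so that tissue exposure does not simply follow the blood. The hormone has a daily rhythm and rises with stress, and several clock genes, *Per1* among them, respond to it. Metallothioneins are small cysteine-rich proteins that bind zinc and copper, and their genes respond to metals through MTF1, to glucocorticoids and to inflammation.

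Counted reads ranged from 14194543 to 15534665 in kidney libraries and from 16652150 to 18300277 in liver libraries. Values are CPM, read counts relative to library size after TMM scaling within a tissue, and a count of 0 allows up to 0.164 to 0.211 CPM, a limit that covers counting error only. *Fos* itself was 5.37 ± 1.02 CPM in NT and 3.23 ± 0.929 CPM in shFos kidneys, and 2.51 ± 1.08 CPM in NT and 1.82 ± 0.637 CPM in shFos livers (SD, n = 4). It ranged from 4.23 to 6.71 CPM in NT and from 2.30 to 4.12 CPM in shFos kidneys. The liver groups overlapped, at 1.12 to 3.70 CPM in NT and 1.38 to 2.76 CPM in shFos, from 17 to 71 reads per library. NT replicate 4 stood apart in each tissue, so the members' differences are given with and without it. The markers were those of the labelled tissues. The summed level of 8 kidney markers was at least 12659 CPM in every kidney and at most 5.45 CPM in every liver, and that of 8 liver markers was at least 66801 CPM in every liver and at most 712 CPM in every kidney. NT replicate 4 had the lowest sum in each tissue, with 12659 CPM of kidney markers against 16613 to 43569 CPM in the other kidneys, and 66801 CPM of liver markers against 115523 to 194975 CPM in the other livers. Single genes weighed heavily in these sums. *Kap* had 1557 CPM in this kidney and 1454 to 26157 CPM in the others, and *Alb* 27345 CPM in this liver against 95719 to 170014 CPM. In each tissue this library was the lowest of 8 for 3 of the 8 markers and the highest for 1. Of all genes it was the lowest for 27% (kidney) and 26% (liver), and the highest for 24.1% and 26.5%. The part of these marker values in the members' values was not tested. In kidney shFos replicate 2 the 8 adrenal cortex markers summed to 46.9 CPM, against 8.01 to 21.9 CPM in the other kidneys. Its 6 adipocyte markers summed to 320 CPM, against 18.7 to 94.5 CPM. Without that library no kidney log2 fold change of a member turned its sign.

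The question was whether the members differed between shFos and NT, and edgeR's quasi-likelihood test was used with a threshold of 0.05 on the adjusted p. In the kidney 0 of 10 members were called, where 0% of the 14892 genes tested were. At an unadjusted p under 0.05, 5 of 10 kidney members passed, against 31.9% of all genes. *Nr3c1*, *Hsd11b1* and *Errfi1* were the higher ones and *Mt1* and *Mt2* the lower ones. DESeq2 called 4 of the 7 members to which it gave an adjusted p (*Nr3c1*, *Errfi1*, *Mt1* and *Mt2*) and 18.4% of all genes. In the liver 0 of 10 members were called, where 0% of the 13144 genes tested were. There 3 members passed at an unadjusted p under 0.05 (*Tsc22d3* higher, *Mt1* and *Mt2* lower), against 6.74% of all genes. DESeq2 called 1 liver member, *Tsc22d3*, and 0.29% of all genes. Lower RNA of a gene in bulk tissue can mean fewer cells of a type or less RNA per cell, which cannot be told apart here.

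Single libraries changed this picture. Without kidney shFos replicate 1, edgeR called 2 members (*Nr3c1*, adjusted p = 0.0245, and *Errfi1*, adjusted p = 0.0349) and 27.5% of all genes. NT replicate 4 was singled out after its values were seen. It was the highest of 8 libraries for 5 members and the lowest for 2 in each tissue. Leaving out the highest NT library raises a member's fold change by construction, and leaving out the lowest reduces it. The counts without it are therefore a description and not a test of the members. Without NT replicate 4, in the kidney 7 members were higher in shFos at an unadjusted p under 0.05, against 16.5% of all genes, and 1 was lower, against 14.3% of all genes. The median log2 fold change of the 10 members went from -0.20 with all libraries to 0.52 without that library, while the median over all genes was 0.00 in both. In the liver 3 members were higher, against 3.56% of all genes, and 0 were lower, against 2.88% of all genes. edgeR's adjusted p remained above 0.05 for all 10 members in both tissues without the library (at the lowest 0.0884 in the kidney and 0.554 in the liver), whereas DESeq2 then called 7 members in the kidney, 6 of them higher, against 15.3% of all genes, and 2 in the liver, both higher, against 0.415%.

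**Figure D1:**
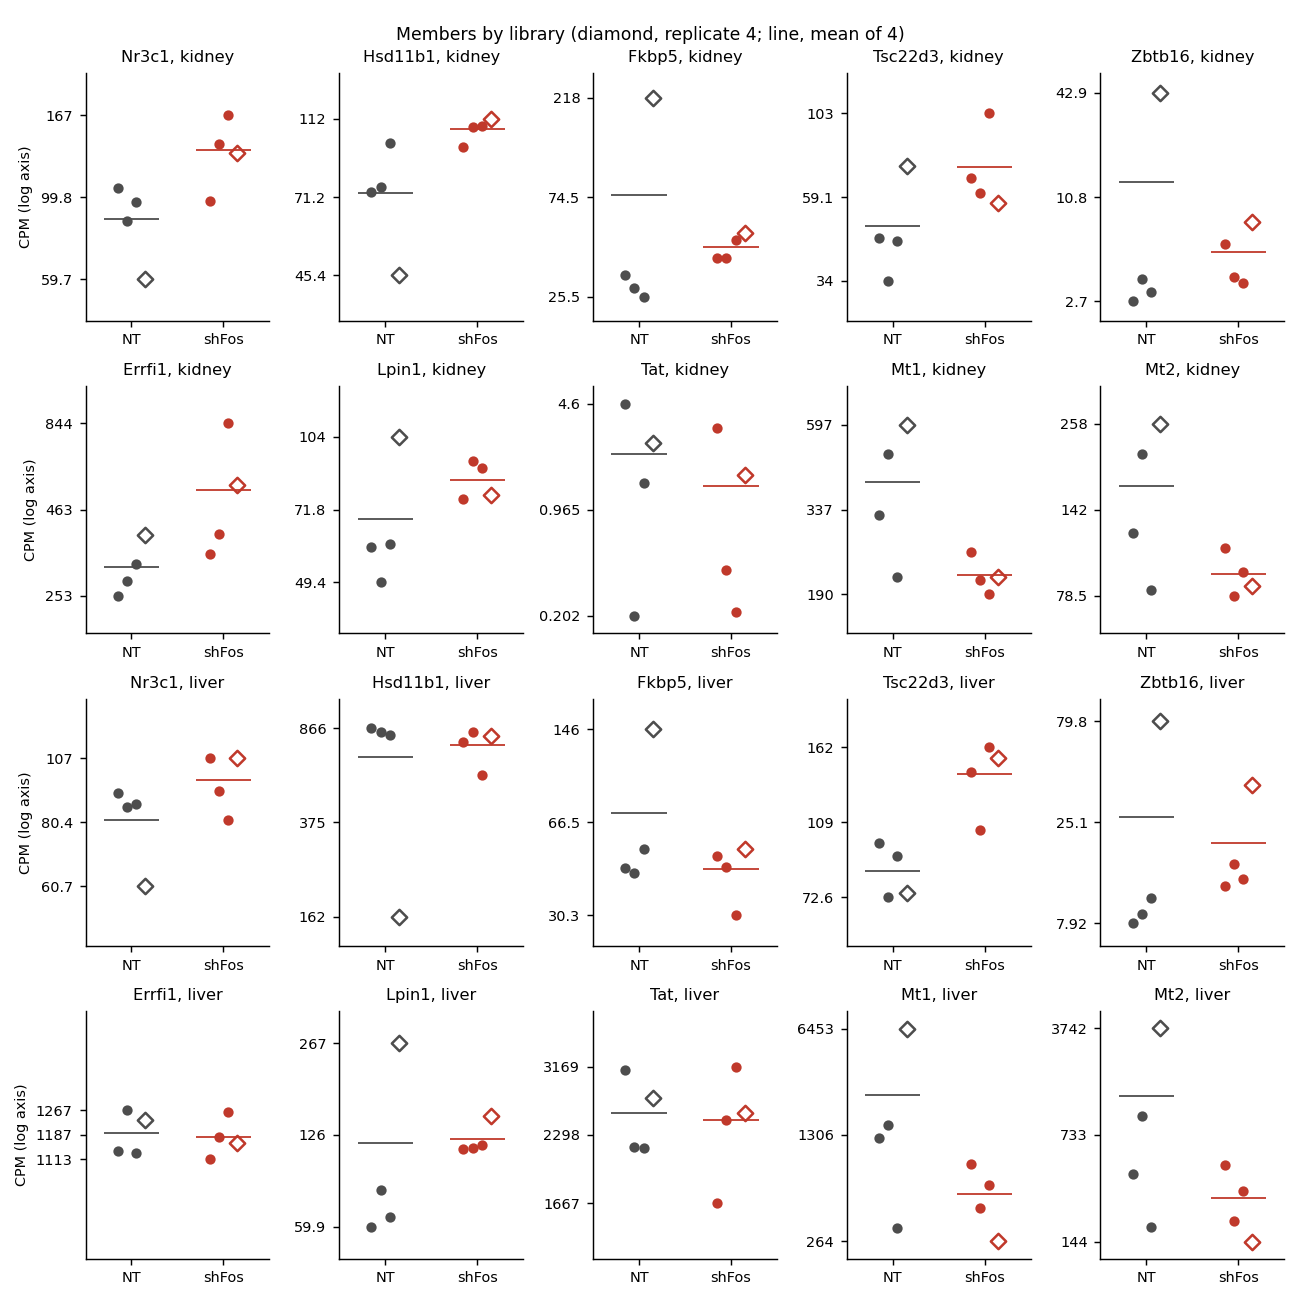
CPM (log axis, a scale of its own in each panel) of the 10 members in the 4 NT and 4 shFos libraries of kidney and liver. Diamonds mark replicate 4 and lines the mean of 4 libraries. NT replicate 4 is the highest of 8 libraries for *Fkbp5*, *Zbtb16*, *Lpin1*, *Mt1* and *Mt2* and the lowest for *Nr3c1* and *Hsd11b1* in both tissues.

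*Nr3c1* (ENSMUSG00000024431.15) lies on chromosome 18 of mm10, from 39410545 to 39519421 on the minus strand, and encodes the receptor itself. In NT kidneys 1 to 4 it was at 106, 85.9, 96.9 and 59.7 CPM, and in shFos kidneys 1 to 4 at 97.3, 139, 167 and 132 CPM. Of the shFos kidneys, 3 were above every NT kidney, and shFos replicate 1 lay within the NT range. Its mean was 87.0 ± 19.95 CPM in NT and 134 ± 28.7 CPM in shFos kidneys (SD, n = 4; exact permutation test, p = 0.0571). This was a log2 fold change of 0.62 (standard error 0.20, edgeR adjusted p = 0.0850). DESeq2 gave 0.61 with an adjusted p of 0.0273, within a range of 0.0245 to 0.250 over the alternatives. A correction for GC content and transcript length brought the value to 0.37, and the omission of NT replicate 4 to 0.48.

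In the liver the test of a different effect gave -0.35 for the receptor, liver against kidney on the log2 scale (edgeR adjusted p = 0.533). The NT livers had 91.6, 86.2, 87.1 and 60.7 CPM and the shFos livers 107, 92.4, 81.2 and 107 CPM. Its log2 fold change was 0.25 (standard error 0.15, edgeR adjusted p = 0.748), and without NT replicate 4 it was 0.12. The libraries of the groups overlapped, and NT replicate 4 was the lowest of the 8.

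Receptor chaperones and coregulators formed a list of 10 genes, all tested in the kidney, of which 3 were higher in shFos at an unadjusted p under 0.05 and 0 lower. Of all kidney genes tested, 17.1% were higher and 14.8% lower by the same threshold, and of all liver genes 3.58% and 3.16%. These 3 were the coactivator gene *Ncoa2* (log2 fold change 0.57, edgeR adjusted p = 0.0660), the corepressor gene *Ncor1* (0.34, adjusted p = 0.0913) and the chaperone gene *Hsp90aa1* (0.52, adjusted p = 0.0938). The list had a median log2 fold change of 0.21, against 0.00 over all genes. In the liver 0 of 10 passed in either direction and the median was 0.07, against -0.01 over all genes. *Hsp90aa1* was at its lowest in NT replicate 4 in each tissue, with 254 CPM in the kidney and 94.6 CPM in the liver.

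*Hsd11b1* (ENSMUSG00000016194.14, chromosome 1, 193221634 to 193264075, minus strand) encodes 11β-hydroxysteroid dehydrogenase type 1. The NT kidneys had 73.2, 75.3, 97.1 and 45.4 CPM and the shFos kidneys 94.8, 107, 107 and 112 CPM. Only NT replicate 3 reached the shFos range, and NT replicate 4 was the lowest kidney. The means were 72.7 ± 21.2 CPM in NT and 105 ± 7.23 CPM in shFos kidneys (SD, n = 4; exact permutation test, p = 0.0571), a log2 fold change of 0.53 (standard error 0.19, edgeR adjusted p = 0.106). It was 0.36 without NT replicate 4.

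In the liver, 7 of the 8 libraries held *Hsd11b1* between 570.5 and 866 CPM, and NT replicate 4 was at 162 CPM, which was 0.193 times the mean of the other NT livers. A log2 fold change of 0.16 with all libraries (edgeR adjusted p = 0.946) became -0.18 without that library (adjusted p = 0.858). Among 5 tested genes of corticosteroid metabolism and transport in the kidney, 1 was higher at an unadjusted p under 0.05, against 17.1% of all genes, *Akr1d1* (5β-reductase), with a log2 fold change of 0.73. *Hsd11b2*, whose product inactivates corticosterone in the distal nephron, was at 185 ± 21.9 CPM in NT and 149 ± 30.4 CPM in shFos kidneys (SD, n = 4), a log2 fold change of -0.31 that did not pass (edgeR adjusted p = 0.192).

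In the liver, 1 of 5 was lower, against 3.16% of all genes. *H6pd*, which supplies the cofactor of HSD11B1, had a log2 fold change of -0.68 (edgeR adjusted p = 0.714). *Serpina6*, the gene of corticosteroid-binding globulin, was chosen here after its values were seen, and had 10787, 2974, 2279 and 3.60 CPM in the NT livers and 548, 2733, 688 and 972 CPM in the shFos livers. NT replicate 4 was the lowest of the 8 livers for *Serpina6* and for *Hsd11b1*, as it was for 26% of all genes. Of the 5 tested genes of the list it was the lowest for 4 and the highest for 1, against 26% and 26.5% of all genes. The gene at its highest there was *H6pd*, with 777 CPM against 305 to 543 CPM in the other livers.

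*Fkbp5* (ENSMUSG00000024222.17, chromosome 17, 28399094 to 28517527, minus strand) encodes a co-chaperone that lowers the affinity of the receptor for its ligand and is itself a sensitive target of the receptor. NT kidneys 1 to 3 had 32.2, 27.8 and 25.5 CPM, and NT kidney 4 had 218 CPM. The shFos kidneys had 38.8, 38.4, 46.7 and 50.3 CPM, all above NT kidneys 1 to 3 and far below NT kidney 4. With all libraries the log2 fold change was -0.80 (standard error 0.68, edgeR adjusted p = 0.443). Without NT replicate 4 it was 0.61 (standard error 0.13, edgeR adjusted p = 0.0884, DESeq2 adjusted p = 0.00273), so the sign rested on 1 library. The alternatives gave adjusted p from 0.00273 to 0.947.

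The livers repeated the position of NT replicate 4 but not the difference between the other libraries. *Fkbp5* was at 45.0, 43.3, 53.2 and 146 CPM in NT livers and at 49.9, 45.5, 30.3 and 53.2 CPM in shFos livers. Here its log2 fold change was -0.69 with all libraries (edgeR adjusted p = 0.742) and -0.09 without NT replicate 4 (adjusted p = 0.950).

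The promoter of *Fkbp5* is shown because it was the only member window with an E-box (letters CACGTG), the element bound by the clock factors CLOCK and ARNTL. RefSeq promoter windows (GRCm38.p6, 250 bases before to 50 after a start) were found for 8 of the 10 members, 11 windows in all, and no entry for *Nr3c1* or *Zbtb16*. The 250 bases before this start lie on the minus strand of chr17:28486150-28486399, inside the annotated span of the gene, and the E-box in capitals runs from base -169 to base -164.
Fkbp5: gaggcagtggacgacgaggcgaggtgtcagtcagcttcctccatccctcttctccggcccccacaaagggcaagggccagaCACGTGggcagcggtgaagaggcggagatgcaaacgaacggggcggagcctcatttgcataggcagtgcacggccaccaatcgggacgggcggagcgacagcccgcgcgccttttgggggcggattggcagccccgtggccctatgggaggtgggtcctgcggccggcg
An E-box occurred in 7.15% of 32851 windows. A glucocorticoid response element, searched as AGAACA and TGTTCT with 3 free bases between them (the same on both strands) and at most 2 mismatches in these 12 letters, was in none of the 11 member windows and in 1.84% of all windows. Response elements of glucocorticoid targets often lie far from the start, outside such windows.

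*Tsc22d3* (ENSMUSG00000031431.13, chromosome X, 140539528 to 140600659, minus strand) encodes GILZ, a leucine zipper protein induced by glucocorticoids. It was the only member whose groups did not overlap with all libraries kept. The NT livers had 97.3, 72.6, 90.4 and 74.3 CPM and the shFos livers 142, 104, 162 and 153 CPM, so that every shFos liver was above every NT liver. In the liver 1 of 10 members was so separated, against 4.31% of all genes. The means were 83.6 ± 12.1 CPM and 140.4 ± 25.7 CPM (SD, n = 4), and the exact permutation test gave p = 0.0286, the smallest it can give. This gave a log2 fold change of 0.75 (standard error 0.17, edgeR adjusted p = 0.712), and DESeq2 gave 0.74 with an adjusted p of 0.0320, within a range of 0.0320 to 0.959 over the alternatives. It was 0.68 without NT replicate 4.

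In the kidney *Tsc22d3* had 45.0, 34.0, 44.3 and 72.6 CPM in NT and 67.2, 60.8, 103 and 56.7 CPM in shFos libraries. Its log2 fold change was 0.55 (standard error 0.26, edgeR adjusted p = 0.176), and 0.81 without NT replicate 4 (standard error 0.22, edgeR adjusted p = 0.0887, DESeq2 adjusted p = 0.00869). Without that library each shFos kidney was above each NT kidney. In the kidney 0 of 10 members had separate groups with all 8 libraries, against 17.2% of all genes.

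*Zbtb16* (ENSMUSG00000066687.5, chromosome 9, 48654297 to 48836222, minus strand) encodes the zinc finger repressor PLZF, which has a strong response to glucocorticoids and a low level without them. NT kidneys 1 to 3 had 2.70, 3.64 and 3.06 CPM and NT kidney 4 had 42.9 CPM, from 41 to 666 reads. The shFos kidneys had 5.78, 3.72, 3.43 and 7.76 CPM. In the liver NT replicates 1 to 3 had 7.92, 8.77 and 10.5 CPM and NT replicate 4 had 79.8 CPM. The shFos livers had 12.1, 15.6, 13.1 and 38.5 CPM, with replicate 4 the highest of that group.

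As for *Fkbp5*, the sign of the difference hung on NT replicate 4. The kidney log2 fold change was -1.34 with it (standard error 0.91, edgeR adjusted p = 0.337) and 0.72 without it (standard error 0.31, adjusted p = 0.159). The liver value was -0.44 with it (standard error 0.80, adjusted p = 0.911) and 1.11 without it (standard error 0.44, adjusted p = 0.739).

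*Errfi1* (ENSMUSG00000028967.10, chromosome 4, 150853919 to 150868892, plus strand) encodes MIG6, a feedback inhibitor of the EGF receptor. The NT kidneys had 253, 281, 316 and 388 CPM and the shFos kidneys 340.3, 390.2, 844 and 551 CPM. The log2 fold change was 0.78 (standard error 0.28, edgeR adjusted p = 0.101), and DESeq2 gave 0.77 with an adjusted p of 0.0328, within a range of 0.0169 to 0.222 over the alternatives. shFos replicate 3 was the highest kidney, and without it the value was 0.46. The livers lay between 1113 and 1267 CPM in all 8 libraries, with a log2 fold change of -0.02 (standard error 0.15). The difference between the tissues was -0.77 on the log2 scale, liver against kidney (standard error 0.33, edgeR adjusted p = 0.271, with a range of 0.0645 to 0.419 over the alternatives).

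*Lpin1* (ENSMUSG00000020593.15, chromosome 12, 16535669 to 16610966, minus strand) encodes a phosphatidate phosphatase that also coactivates genes of fatty acid oxidation in liver. The NT kidneys had 59.4, 49.4, 60.2 and 104 CPM and the shFos kidneys 75.7, 92.4, 89.0 and 77.3 CPM. The log2 fold change was 0.29 with all libraries (edgeR adjusted p = 0.378) and 0.57 without NT replicate 4 (standard error 0.11, edgeR adjusted p = 0.0884, DESeq2 adjusted p = 0.000832).

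In the liver, NT replicates 1 to 3 had 59.9, 81.0 and 64.9 CPM, NT replicate 4 had 267 CPM, and the shFos livers had 113, 114, 117 and 147 CPM. The shFos livers thus sat between NT replicates 1 to 3 and NT replicate 4, without overlap with either. The log2 fold change was 0.05 with all libraries (standard error 0.46, edgeR adjusted p = 0.984). Without NT replicate 4 it was 0.83 (standard error 0.14, edgeR adjusted p = 0.554, DESeq2 adjusted p = 0.000711), and the alternatives gave adjusted p from 0.000711 to 0.995.

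*Tat* (ENSMUSG00000001670.13, chromosome 8, 109990437 to 109999803, plus strand) encodes tyrosine aminotransferase, a classical hepatic target of glucocorticoids. The NT livers had 3125, 2167, 2164 and 2739 CPM and the shFos livers 1667, 2471, 3169 and 2547 CPM. The groups overlapped almost wholly, with a log2 fold change of -0.05 (standard error 0.24, edgeR adjusted p = 0.972), and NT replicate 4 was not extreme. In the kidney *Tat* was scarce, with 3 to 70 reads per library.

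**Figure D2:**
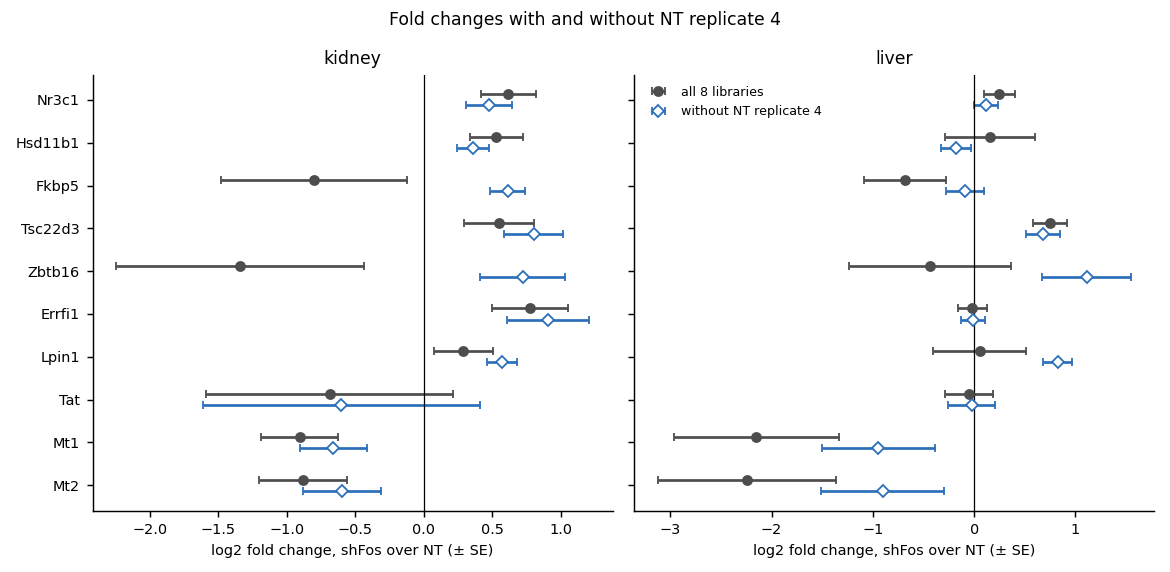
Log2 fold change of shFos over NT with its standard error for the 10 members, from edgeR fits with all 8 libraries (circles) and without NT replicate 4 (diamonds). Without that library *Fkbp5* and *Zbtb16* move from negative to positive in the kidney, *Zbtb16* does so in the liver, and *Mt1* and *Mt2* stay negative in both tissues.

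*Mt1* (ENSMUSG00000031765.8, chromosome 8, 94179082 to 94180327, plus strand) and its neighbour *Mt2* (ENSMUSG00000031762.7, 94172664 to 94173568, plus strand) had lower means in shFos than in NT in both tissues, without an edgeR call in either. The NT kidneys had 324, 491, 214 and 597 CPM of *Mt1* and the shFos kidneys 253, 209, 190.4 and 214 CPM. Only NT replicate 3 reached the shFos range. The means were 406 ± 170.3 CPM in NT and 217 ± 26.5 CPM in shFos kidneys (SD, n = 4; exact permutation test, p = 0.0571), a spread that was wider in NT. The log2 fold change was -0.91 (standard error 0.28, edgeR adjusted p = 0.0794), DESeq2 gave -0.92 with an adjusted p of 0.0137, and the alternatives gave adjusted p from 0.0137 to 0.394. It was -0.66 without NT replicate 4.

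*Mt2* had the same order of libraries in the NT kidneys, with 121, 209.9, 81.8 and 258 CPM, and 109, 78.5, 92.6 and 83.8 CPM in the shFos kidneys. Its log2 fold change was -0.88 (standard error 0.32, edgeR adjusted p = 0.104). DESeq2 gave -0.89 with an adjusted p of 0.0318, within a range of 0.0318 to 0.450. Without NT replicate 4 it was -0.60, and the correction for GC content and transcript length gave -0.59.

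The livers varied most. *Mt1* was at 1249.8, 1512, 323 and 6453 CPM in NT and at 839, 434, 611 and 264 CPM in shFos livers, and *Mt2* at 402, 985, 179 and 3742 CPM in NT and at 467, 197, 313 and 144 CPM in shFos livers. The shFos range of each gene overlapped the NT range through NT replicate 3, and for *Mt2* through NT replicate 1 as well. The log2 fold change of *Mt1* was -2.15 (standard error 0.81, edgeR adjusted p = 0.717), and -0.95 without NT replicate 4 (standard error 0.56, adjusted p = 0.816). For *Mt2* the values were -2.24 (standard error 0.88, adjusted p = 0.730) and -0.91 (standard error 0.61, adjusted p = 0.836). In both tissues the NT libraries stood in the same order for *Mt1*, with replicate 3 the lowest, then 1, 2 and 4.

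The promoters of *Mt1* and *Mt2* are shown because they hold several cores of the metal response element (letters TGCGCNC or TGCACNC, on either strand, in capitals), the site of MTF1. The *Mt2* window held 4 cores, as at least 4 cores did in 0.517% of all 32851 windows, and the *Mt1* window held 3, as at least 3 did in 1.97%. At least 1 core was present in 25.7% of windows. The *Mt1* sequence covers chr8:94178839-94179115 on the plus strand, with cores at -23 to -17, 3 to 9 and 21 to 27 from the RefSeq start. The *Mt2* sequence covers chr8:94172368-94172628 on the plus strand, with cores at -223 to -217, -128 to -122, -50 to -44 and 5 to 11.
Mt1: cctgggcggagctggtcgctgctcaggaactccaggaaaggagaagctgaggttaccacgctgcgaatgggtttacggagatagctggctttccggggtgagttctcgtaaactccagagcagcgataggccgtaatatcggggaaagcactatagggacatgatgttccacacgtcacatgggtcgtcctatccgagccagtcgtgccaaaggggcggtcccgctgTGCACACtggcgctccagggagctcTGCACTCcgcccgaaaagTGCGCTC
Mt2: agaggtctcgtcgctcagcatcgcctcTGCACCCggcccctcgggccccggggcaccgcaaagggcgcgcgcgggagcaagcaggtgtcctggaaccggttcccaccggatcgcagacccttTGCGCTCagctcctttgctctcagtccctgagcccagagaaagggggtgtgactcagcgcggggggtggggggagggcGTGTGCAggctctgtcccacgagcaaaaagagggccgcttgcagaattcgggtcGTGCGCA
Among the other 6 members with a window, *Hsd11b1* had 1 core and the rest had 0. A match describes the letters of a window and not the binding of a factor.

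Of 9 other genes of the metal response, 7 were tested in each tissue. In the kidney 2 were higher at an unadjusted p under 0.05, the metal-sensing factor gene *Mtf1* (log2 fold change 0.33, edgeR adjusted p = 0.0827) and the zinc importer gene *Slc39a10* (0.42, adjusted p = 0.132), and 0 were lower, so that 2 of 7 passed, against 31.9% of all genes. In the liver 1 was higher, the importer gene *Slc39a4* (0.42), and 2 were lower, the importer gene *Slc39a14* (-0.89) and the exporter gene *Slc30a1* (-0.43), with edgeR adjusted p from 0.714 to 0.733. Of all liver genes 3.58% were higher and 3.16% lower. *Slc39a14*, which also responds to inflammation, had 688 CPM in liver NT replicate 4 and 168 to 321 CPM in the other livers.

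The shFos effect was also compared between the tissues in a fit of all 16 libraries. In edgeR's test 0 of 10 members were called for a different effect, where 0% of 15421 genes were, and at an unadjusted p under 0.05 only *Errfi1* passed, against 16.1% of all genes. DESeq2 called 0 of the 8 members to which it gave an adjusted p, and 2.22% of all genes.

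The level of the members differed between tissues. On a TMM scale over all 16 libraries, the liver median of *Tat* was 3348 times the kidney median, that of *Hsd11b1* 16.8 times and that of *Errfi1* 6.39 times. The libraries of the tissues did not overlap for 6 members (*Hsd11b1*, *Tsc22d3*, *Errfi1*, *Lpin1*, *Tat* and *Mt2*), each higher in liver. With scaling by total counts 3 of these stayed apart (*Hsd11b1*, *Errfi1* and *Tat*). Per kilobase of the longest annotated transcript, liver levels had the order *Tat* (median 1507 CPM per kilobase), *Mt2* (978), *Mt1* (944), *Hsd11b1* (581), *Errfi1* (549), *Tsc22d3* (49.4), *Lpin1* (28.9), *Nr3c1* (19.5), *Fkbp5* (17.6) and *Zbtb16* (3.48). In the liver each range overlapped the next in this order, except that *Errfi1* and *Tsc22d3* were apart. In the kidney the order was *Mt1* (154), *Mt2* (139), *Errfi1* (86.0), *Hsd11b1* (34.6), *Tsc22d3* (14.4), *Nr3c1* (11.2), *Lpin1* (9.71), *Fkbp5* (7.17), *Zbtb16* (0.508) and *Tat* (0.450), and there *Errfi1* and *Hsd11b1* were the neighbours that were apart.

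**Figure D3:**
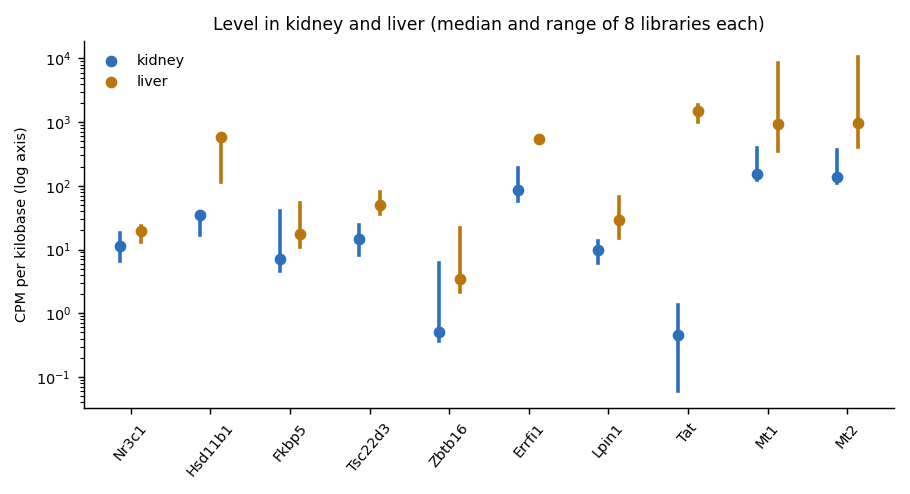
Median (point) and range (line) over 8 kidney and 8 liver libraries, in CPM per kilobase of the longest transcript on a log axis, TMM-scaled over all 16 libraries. *Tat*, *Hsd11b1* and *Errfi1* are the members whose tissues were apart under both scalings, and *Zbtb16*, *Mt1* and *Mt2* have long upper lines in the liver.

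NT replicate 4 held a like position for many members in kidney and liver. This library was singled out after its values were seen. It was at least 2-fold above every other library for 2 of 10 members in the kidney (*Fkbp5* and *Zbtb16*), against 0.779% of all genes, and for 4 in the liver (*Fkbp5*, *Zbtb16*, *Mt1* and *Mt2*), against 1.86%. It was at or below 0.5 times every other library for 0 members in the kidney, against 3.89% of all genes, and for 1 in the liver (*Hsd11b1*), against 3.25%. It was the highest of 8 libraries for the same 5 members in both tissues (*Fkbp5*, *Zbtb16*, *Lpin1*, *Mt1* and *Mt2*), against 24.1% (kidney) and 26.5% (liver) of all genes. It was the lowest for *Nr3c1* and *Hsd11b1* in both, against 27% and 26%. Among 12727 genes tested in both tissues, 31 were 2-fold above every other library in each, and *Fkbp5* and *Zbtb16* were 2 of them.

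Relative to the mean of NT replicates 1 to 3, the kidney of this number had 13.7 times as much *Zbtb16*, 7.66 times *Fkbp5*, 1.87 times *Mt2*, 1.85 times *Lpin1* and 1.74 times *Mt1*. The liver had 8.80 times *Zbtb16*, 7.17 times *Mt2*, 6.28 times *Mt1*, 3.89 times *Lpin1* and 3.10 times *Fkbp5*. *Errfi1* and *Tat* moved least, at 1.05 and 1.10 times in the liver. *Tsc22d3* parted between the tissues, at 1.76 times in the kidney and 0.857 times in the liver.

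**Figure D4:**
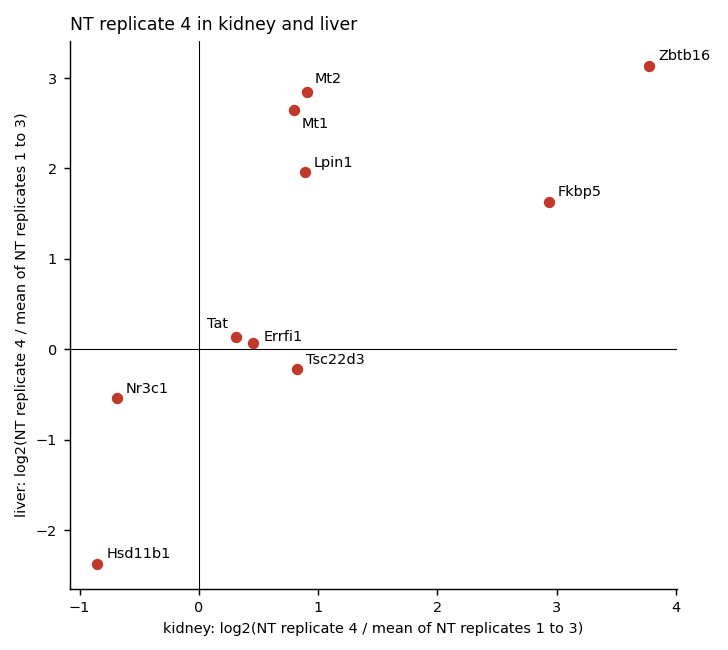
Log2 ratio of NT replicate 4 to the mean of NT replicates 1 to 3 for each member, kidney on the horizontal and liver on the vertical axis. *Zbtb16* and *Fkbp5* are at the upper right (13.7 and 7.66 times in the kidney), the metallothioneins and *Lpin1* are higher mainly in the liver, and *Nr3c1* and *Hsd11b1* are at the lower left.

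The wider lists were read in the same library. Of 20 further glucocorticoid targets, 16 were tested in the kidney and NT replicate 4 was the highest of 8 for 7 and the lowest for 2 of them, against 24.1% and 27% of all genes. Of 19 tested in the liver it was the highest for 8 and the lowest for 4, against 26.5% and 26%. *Per1*, which is both a clock gene and a target, had 167 CPM in this kidney against 47.0 to 81.2 CPM in the other 7, and 64.8 CPM in this liver against 22.7 to 49.6 CPM. Of the acute phase genes, it was the highest for 9 of 10 tested in the liver and 4 of 6 in the kidney, and the lowest for 0. *Saa2*, an acute phase serum amyloid gene, had 10852 CPM in this liver against 20.9 to 256 CPM in the other livers, and *Lcn2* had 6151 CPM against 93.1 to 742 CPM. The kidney had 218 CPM of *Lcn2*, against 15.9 to 72.8 CPM. The 10 acute phase genes summed to 96558 CPM in this liver, against 13946 to 21359 CPM in the others, and to 560.1 CPM in this kidney, against 94.5 to 159 CPM. Their part in the values of the members was not tested.

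That library was then left aside, a choice made after its values were seen. The shFos kidneys were above all 3 NT kidneys for 4 of 10 members (*Fkbp5*, *Tsc22d3*, *Errfi1* and *Lpin1*), against 12.7% of all genes. The shFos livers were above all 3 NT livers for 3 of 10 (*Tsc22d3*, *Zbtb16* and *Lpin1*), against 4.35%. Of the 20 further targets, 18 were then tested in the kidney, with 5 higher and 1 lower at an unadjusted p under 0.05, against 16.5% and 14.3% of all genes. *Sgk1*, the serum- and glucocorticoid-regulated kinase, had 160.2, 112, 145 and 209 CPM in NT and 303, 219.8, 413 and 265 CPM in shFos kidneys, so that the groups did not overlap with all libraries kept. With all libraries its log2 fold change was 0.94 (standard error 0.23, edgeR adjusted p = 0.0660). In the same fit of all libraries, the gluconeogenic enzyme gene *G6pc* had 1.36 (adjusted p = 0.0660). *Cebpd*, an acute phase transcription factor gene, had -0.60 there (adjusted p = 0.0978). NT replicate 4 was the lowest kidney for *G6pc* (154 CPM) and the highest for *Cebpd* (76.8 CPM). With all libraries 3 of 16 were higher and 1 lower, against 17.1% and 14.8% of all genes, and the list's median was 0.01, against 0.00 over all genes.

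In the liver, 2 of 19 further targets were higher and 2 lower at an unadjusted p under 0.05 with all libraries, against 3.58% and 3.16% of all genes. Leaving out NT replicate 4 made these 4 and 2, against 3.56% and 2.88%. The estrogen sulfotransferase gene *Sult1e1* had the smallest p, with 12.8, 12.9, 1.98 and 164 CPM in NT and 0.561, 0.889, 1.76 and 1.56 CPM in shFos livers (log2 fold change -5.33, edgeR adjusted p = 0.714). *Igfbp1*, an insulin-like growth factor binding protein gene, had -1.15 and *Pdk4*, a kinase gene of fuel selection, 0.76 (both adjusted p = 0.714). Targets of the receptor thus lay on both sides of 0 in both tissues.

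Time of day was read from clock genes. Of 18 clock genes in the kidney, 4 were higher and 9 lower in shFos at an unadjusted p under 0.05, against 17.1% and 14.8% of all genes, with a median log2 fold change of -0.56, against 0.00 over all genes. *Arntl*, the activator of the loop, had 26.7, 14.0, 24.8 and 17.2 CPM in NT and 43.4, 38.8, 49.1 and 41.5 CPM in shFos kidneys. *Per3* had 27.7, 25.7, 16.9 and 28.3 CPM in NT and 9.38, 8.11, 5.44 and 6.91 CPM in shFos kidneys. Neither overlapped between the groups (log2 fold changes 1.06 and -1.72, both with an edgeR adjusted p of 0.0660). *Dbp*, an output gene of the clock, differed by -2.49 on the log2 scale (adjusted p = 0.0660). In the liver 0 of 18 were higher and 3 lower, against 3.58% and 3.16% of all genes, led by *Nr1d1* (-2.54) and *Dbp* (-2.40). *Dbp* had 14.9 CPM in liver NT replicate 2 (259 reads) and 0.411 to 1.46 CPM in the other livers (7 to 26 reads). Apart from NT replicate 2, the NT livers lay within the shFos range of *Dbp*.

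The clock genes were also set beside *Fkbp5* library by library. The repressor gene *Nr1d1* had 14.6, 72.7, 75.7 and 92.2 CPM in the NT kidneys, and NT kidneys 1 and 3, at 14.6 and 75.7 CPM of *Nr1d1*, had 32.2 and 25.5 CPM of *Fkbp5*. In the NT livers *Nr1d1* had 3.30, 75.7, 47.2 and 33.3 CPM, again lowest in replicate 1, where *Fkbp5* was 45.0 CPM. In the shFos group *Nr1d1* had 16.5, 36.7, 26.6 and 23.7 CPM in the kidneys and 1.96, 15.1, 6.40 and 3.95 CPM in the livers, with replicate 1 the lowest and replicate 2 the highest in both tissues. Replicate 4 of NT, at the extreme of *Fkbp5* and *Zbtb16*, was the highest kidney for *Nr1d1* but not for *Dbp* (20.3 CPM, against 21.4 CPM in NT replicate 2), and in the liver it was highest for neither. Of the 18 clock genes, it was the highest of 8 kidneys for 8 and the lowest for 0, against 24.1% and 27% of all genes. Among the livers it was the highest for 2 (*Per1* and *Ciart*) and the lowest for 2, against 26.5% and 26%. *Per2*, a repressor of the loop that also responds to glucocorticoids, had 36.6, 16.8, 13.2 and 44.4 CPM in the NT kidneys.

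*Mt1* by replicate matched none of these orders in full. Its NT order of replicates 3, 1, 2 and 4 differed from that of *Nr1d1* in the kidney (1, 2, 3 and 4) and in the liver (1, 4, 3 and 2). Of the 18 kidney clock genes, edgeR called 0 at an adjusted p under 0.05, where 0% of all genes were called. At an unadjusted p under 0.05, 4 were higher and 9 lower in shFos kidneys, against 17.1% and 14.8% of all genes. The part of collection time in the members' differences was not tested.

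Stress genes were read in the same way. Of 10 heat shock genes in the kidney, 5 were higher in shFos at an unadjusted p under 0.05 and 0 lower, against 17.1% and 14.8% of all genes, with a median log2 fold change of 0.31. *Hspa4l*, a chaperone gene of the HSP110 family, had 26.3, 22.2, 24.4 and 19.9 CPM in NT and 41.2, 43.3, 42.8 and 44.8 CPM in shFos kidneys (log2 fold change 0.89, edgeR adjusted p = 0.0660), without overlap. *Hspd1* (0.59) and *Hsph1* (0.63) were next. NT replicate 4 had the lowest summed level of the list among the kidneys, at 2131 CPM against 2256 to 3525 CPM, and among the livers, at 1235 CPM against 1518 to 2891 CPM. *Hspa8* weighed heavily, with 1469 CPM in this kidney, and was lower in kidney shFos replicate 1 (1248 CPM). NT replicate 4 was the lowest for 4 of 10 genes in the kidney and 7 of 9 in the liver, against 27% and 26% of all genes. It was the highest for 0 in each, against 24.1% and 26.5%. In the liver 1 of 9 heat shock genes was higher in shFos, *Hspb1* (0.92), against 3.58% of all genes, and 0 were lower.

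Immediate early genes, which respond within minutes to stimulation and handling, were lower in shFos kidneys for 8 of 12, against 14.8% of all genes, and higher for 0, *Fos* itself being a member of this list. *Ier2* had a log2 fold change of -0.60, *Junb* of -0.55 and *Fosb* of -1.36 (edgeR adjusted p from 0.0660 to 0.0669). In the liver 5 of 11 were lower, against 3.16% of all genes, and 0 higher, led by *Ier3* (-1.62), *Ier2* (-0.55) and *Jun* (-0.58). The summed level of the 12 genes in NT replicate 4 was 466 CPM in the kidney, against 374 to 462 CPM in NT replicates 1 to 3. *Zfp36* weighed in this sum, with 103 CPM against 42.4 to 65.8 CPM in the other kidneys. NT replicate 4 was the highest kidney for 2 of 12 genes (*Nr4a1* and *Zfp36*) and the lowest for 1, against 24.1% and 27% of all genes. In the liver its sum was 336 CPM, against 173 to 321 CPM in the others. There it was the highest for 4 of 11 and the lowest for 0, against 26.5% and 26%.

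**Figure D5:**
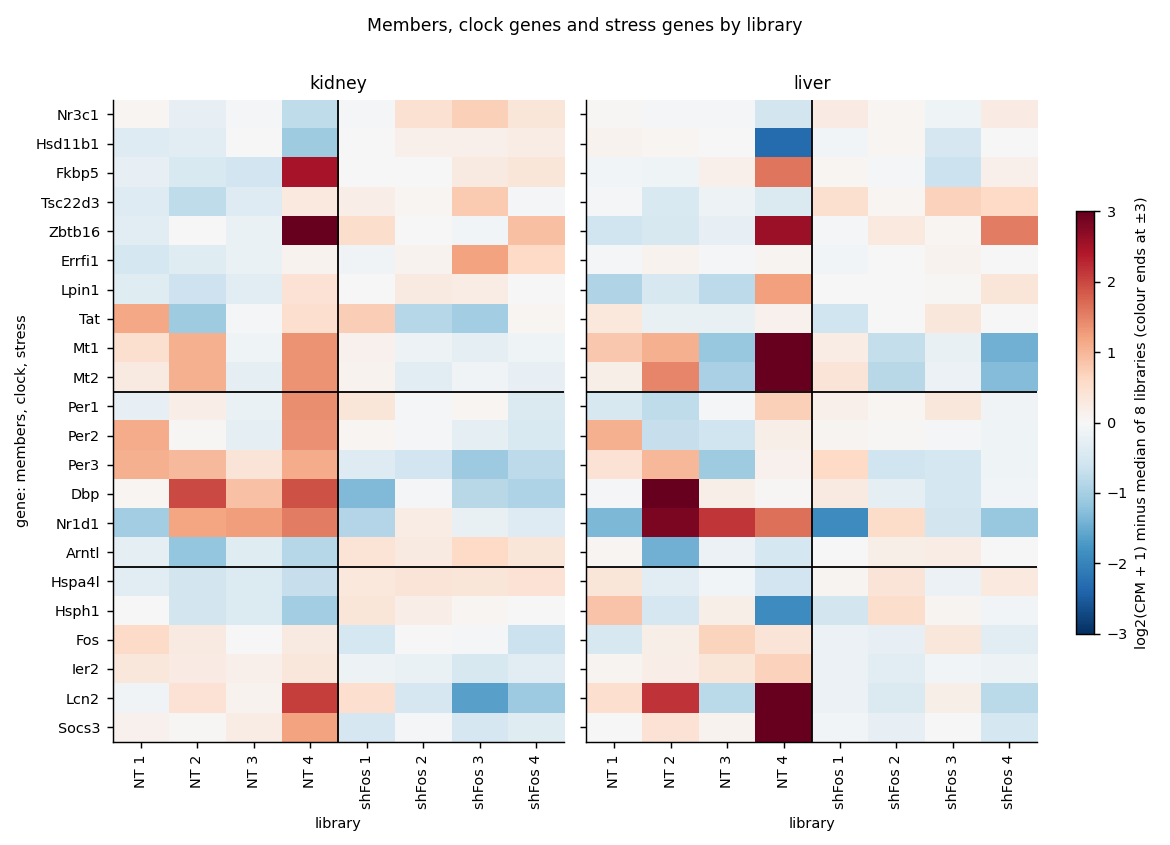
Log2(CPM + 1) of members (upper block), clock genes (middle) and stress genes (lower) in each library, minus the median of the 8 libraries of its tissue. Colours end at ±3. NT replicate 4 is red for *Fkbp5*, *Zbtb16*, *Mt1*, *Mt2*, *Lcn2* and *Socs3* and blue for *Nr3c1*, *Hsd11b1* and *Hsph1* in both tissues, while *Nr1d1* is red in NT replicates 2, 3 and 4 and blue in NT replicate 1.

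Genes most alike to *Fkbp5* and to *Mt1* were taken by the correlation, over 16 libraries, of log2(CPM + 1) deviations from the group means, among 12727 genes. For *Fkbp5* these were *Mad2l2* (Pearson r = 0.948), *Flywch1* (0.940) and *Col13a1* (0.940), and *Zbtb16* ranked 4 (0.921). Without the NT replicate 4 libraries, 14 libraries in all, the values were 0.418, 0.850 and 0.404, and 0.441 for *Zbtb16*. For *Mt1* they were *Mt2* (0.973), *Dad1* (0.916) and *Mcrip1* (0.914), and without those libraries 0.935, 0.857 and 0.803. Between *Fkbp5* and *Mt1* the correlation was 0.463 with all libraries and -0.356 without NT replicate 4. These values describe how libraries differ from the mean of their own tissue and treatment group, and they carry no test.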

How the data were processed

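RNA-seq counts per gene were used as the authors deposited them, 1 table per library. Per the labels and the study's methods, the authors trimmed reads with Trimmomatic 0.39, aligned them to mm10 with HISAT2 2.2.1 and counted them with HTSeq 0.12.4, without further normalization. Strand was not used in the counting, so reads of a gene and of an overlapping antisense gene cannot be told apart.

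Counts were fitted per tissue with edgeR 4.0.16 in R 4.3.3 (filterByExpr, TMM, robust quasi-likelihood, Benjamini-Hochberg adjustment over all genes), and the difference between tissues in 1 fit of 16 libraries. DESeq2 1.42.0, other scalings and filters, a correction for GC content and length, a replicate block and the omission of each library were alternatives. Members' CPM were compared by exact two-sided permutation tests over 70 assignments. Nothing says that libraries came from separate cages or preparations, so p-values measure the spread between these libraries. Same-numbered NT and shFos libraries did not deviate together (correlations from -0.221 to 0.0823), so numbers were not taken as pairs there. Same-numbered kidney and liver libraries had correlations of 0.174 to 0.383 in NT and 0.0218 to 0.169 in shFos. For kidney NT replicate 1 and kidney shFos replicates 1 and 3, a liver library of another number correlated better (0.182, 0.0701 and 0.139). The values of 1 number in both tissues may therefore not be independent, but the numbers do not settle it. A block within treatment was an alternative for the tissue difference, chosen after seeing the data.

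The members and gene lists were chosen with earlier results of these data known. Named beside the members were the 3 genes of each list with the smallest unadjusted p in the tissue described, Fos, 6 clock genes and the 3 genes most alike to Fkbp5 and Mt1. Identifiers and positions are from GENCODE M21. The fits were tested on simulated counts.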

Additional observations from a re-analysis of the deposited data

Results flagged for a closer look

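In 8 of 40 groups of 4 libraries, 1 library stood far from the other 3 (Dixon's test). The limit used flags about 1 in 20 groups of independent, normally distributed values. The 40 groups are 10 members in the same 16 libraries, so they are not independent, and no excess of flags was tested. NT replicate 4 was that library in 6 of the 8 groups. It had 218 CPM of *Fkbp5* and 42.9 CPM of *Zbtb16* in the kidney. In the liver it had 146 CPM of *Fkbp5*, 79.8 CPM of *Zbtb16*, 267 CPM of *Lpin1* and, at the low end, 162 CPM of *Hsd11b1*. Liver shFos replicate 4 was the other, with 38.5 CPM of *Zbtb16* and 147 CPM of *Lpin1*.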

How the results depend on the processing

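The number of members called went from 0 to 4 in the kidney (18.4% of all genes) and to 1 in the liver (0.29%) with DESeq2, and to 7 (15.3%) and 2 (0.415%) with DESeq2 and NT replicate 4 left out, an alternative chosen after seeing the data. Leaving out 1 library gave 0 to 2 called kidney members (2 without shFos replicate 1, with 27.5% of all genes). At an unadjusted p under 0.05, the 5 kidney members (31.9% of all genes) became 3 (25.4%) in the fit of all 16 libraries, 2 (28.1%) with the GC and length correction, 3 (21.8%) with that correction and the replicate block, 9 (31.1%) with DESeq2 without NT replicate 4, and 3 to 8 with 1 library left out (3 without NT replicate 2, with 23.2%, and 8 without NT replicate 4, with 30.9%). The 3 liver members (6.74%) became 1 (4.56%) with the replicate block, 1 (4.83%) with the block and the GC and length correction, and 1 to 3 with 1 library left out (1 without shFos replicate 2 or 4, with 5.96% and 5.03%). The block gave 4 kidney members (25.4%). A block within treatment gave 0 calls for the tissue difference. The exact test passed 1 liver member, and 0 to 0 with 1 library left out, a count fixed in advance because 3 against 4 libraries cannot give a p below 0.0571. Members with separate tissues went from 6 to 3 with total-count CPM.

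Log2 fold changes turned sign as follows. With NT replicate 4 left out, by DESeq2 and by the GC and length correction, *Hsd11b1* had -0.18 and -0.17 in the liver, *Fkbp5* 0.61 and 0.64 and *Zbtb16* 0.72 and 0.77 in the kidney, and *Zbtb16* 1.11 and 1.10 in the liver. *Zbtb16* in the liver had 0.17 with the replicate block and 0.17 with the block and that correction. For the difference between tissues, *Fkbp5* had -0.20 with the replicate block, -0.21 with the block and correction, -0.36 with a block within treatment and -0.71 without both NT replicate 4 libraries, where *Tsc22d3* had -0.12 and *Lpin1* 0.25. *Lpin1* had 0.016 with the block within treatment. The cause was not tested.

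With 1 library left out, log2 fold changes ran in the kidney from 0.48 to 0.73 for *Nr3c1*, -1.09 to 0.61 for *Fkbp5*, -1.68 to 0.72 for *Zbtb16* and 0.46 to 0.91 for *Errfi1*. In the liver they ran from -0.18 to 0.29 for *Hsd11b1*, -0.98 to 1.11 for *Zbtb16*, -0.056 to 0.010 for *Errfi1*, -0.17 to 0.83 for *Lpin1* and -0.20 to 0.10 for *Tat*. For the difference between tissues they ran from -1.33 to 0.77 for *Fkbp5*, -0.075 to 0.39 for *Tsc22d3*, -1.19 to 2.51 for *Zbtb16*, -0.55 to 0.57 for *Lpin1*, -0.032 to 1.53 for *Tat* and -1.72 to 0.0023 for *Mt2*. Over all alternatives run, 8 of 10 members kept their sign in the kidney, 5 in the liver and 4 for the difference between tissues. Depth limits *Tat* in the kidney, at 3 to 70 reads.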
